A study of Mus musculus with 9 samples.

Results

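Levels of 10 apolipoprotein genes, *Apoa1*, *Apoa2*, *Apoa4*, *Apoa5*, *Apob*, *Apoc1*, *Apoc2*, *Apoc3*, *Apoe* and *Apom*, were described in the livers of mice fed chow or a high-sucrose diet (HSD). They are named genes from among the 19329 gene symbols in the deposited tables, chosen by name, and all 10 were in the tables and passed the filter on low counts. The mice were C57BL/6J, an inbred strain without an added mutation or transgene in the labels, and 9 livers were sequenced, each from a separate animal. Chow was given throughout to 5 mice, and 4 mice were moved to HSD at the age of 8 weeks and kept on it for 3 weeks. All livers were taken at 11 weeks, so that age, strain and light cycle were shared and diet was the difference named in the labels. Sex, fasting state, the division of mice over cages and the hour of collection are not given in the sources used here.

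Apolipoproteins are the proteins that coat lipoproteins, the particles in which triglyceride and cholesterol travel through blood. The liver assembles apolipoprotein B with lipid into very low density lipoprotein (VLDL), and it also makes apolipoproteins A-I and A-II, the main proteins of high density lipoprotein (HDL). Small exchangeable apolipoproteins move between particles and set how they are handled, with apolipoprotein C-II activating lipoprotein lipase, C-III slowing the clearance of triglyceride, and E binding lipoprotein receptors of the liver. In mice, apolipoprotein A-IV is made mainly in the intestine and also in the liver. In bulk tissue, a change in the RNA of a cell and a change in the share of that cell type cannot be told apart.

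The libraries held 12769668 to 25913869 estimated counts each (median 20197617). Of 5 hepatocyte markers tested (*Alb*, *Ttr*, *Ahsg*, *Cps1* and *Serpina1a*), the summed level was 59084 to 121056 CPM on chow and 98487 to 126316 CPM on HSD. CPM is the share of a gene in the counts of its library. Sums over a list are plain shares of the library total, and CPM elsewhere is rescaled between libraries by TMM. Chow 1 stood apart from the other chow livers in 21 acute phase genes, whose mean log2 CPM, centred over the 9 livers, was 3.40 in it with -0.56 to 0.34 in chow 2 to 5 and -0.76 to -0.52 on HSD. Chow 3 was the next highest at 0.34. The codes in the labels fall into 2 series, the first with chow 1 to 4 and HSD 1 and 2, the second with chow 5 and HSD 3 and 4. Values with these livers left out and within the series are given where they bear on a gene below.

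Of the 10 apolipoprotein genes, *Apoa4* and *Apoc2* were higher on HSD and 8 did not pass the test. The test was edgeR's quasi-likelihood fit over 12091 genes, a gene being called at a Benjamini-Hochberg adjusted p under 0.05. By the same test 3.44% of all genes tested were called higher and 3.23% lower. No apolipoprotein gene was called lower by edgeR (0 of 10), while 5 of the 10 had an unadjusted p under 0.05 (3 higher, 2 lower), against 23.7% of all genes. With DESeq2, *Apoa2* was also called lower (log2 difference -0.25, adjusted p = 0.0403), where 5.71% of all genes were called lower, and limma voom made the same 2 calls as edgeR and no call of a lower gene (0 of 10). The log2 fold changes of HSD against chow (log2FC) were positive in 4 genes and negative in 6, with a median of -0.10 against -0.00 over all genes tested. In *Apoa4* and *Apoc2* every HSD liver lay above every chow liver, as in 5.84% of all genes, and in *Apoc1* every HSD liver lay below every chow liver, as in 5.51% of all genes. These counts are for CPM. In TPM, the measure corrected for transcript length, *Apoa4* and *Apoc2* were again apart. *Apoa5* was apart as well, at 964 to 1435 TPM on chow and 1507 to 1838 TPM on HSD. The *Apoc1* range on HSD (11645 to 12799 TPM) lay within that on chow (10158 to 15229 TPM). The share of all genes apart in TPM was not counted.

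**Figure D1:**
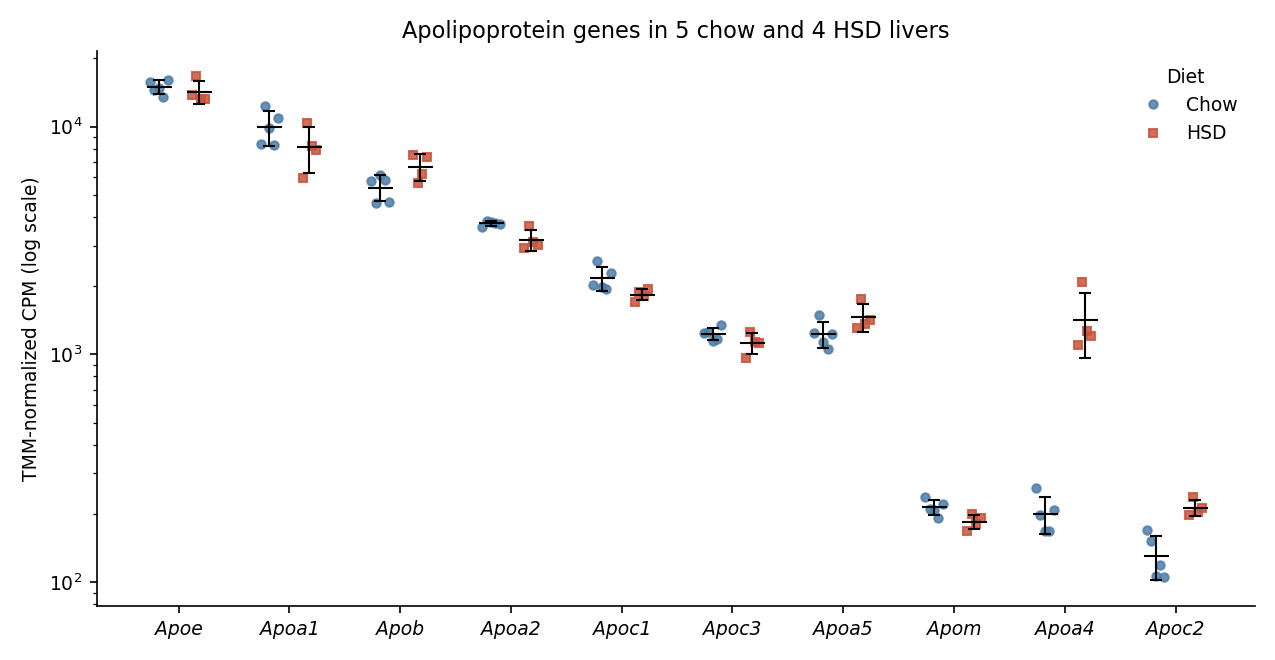
TMM-normalized CPM (log axis) of the 10 apolipoprotein genes, ordered by their chow mean. Each circle is a chow liver (n = 5) and each square an HSD liver (n = 4), and the black marks give the mean and SD. *Apoa4* rose from 167 to 258 CPM on chow to 1103 to 2081 CPM on HSD, and the HSD livers lie above all chow livers.

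*Apoa4* showed the largest difference of the group. Its level was 257.8, 197.5, 168.4, 167.0 and 206.8 CPM in chow 1 to 5 and 1103, 2081, 1267 and 1201 CPM in HSD 1 to 4. The lowest HSD liver was thus well above the highest chow liver, and among the HSD livers HSD 2 was the highest. Over 5 chow livers the mean was 199 CPM with an SD of 37.0, and over 4 HSD livers it was 1413 CPM with an SD of 450, which is 7.08-fold higher. On the log2 scale the change was 2.82 (SE 0.20, 95% interval 2.39 to 3.26, adjusted p = 3.18e-05 by edgeR), which was place 7 of 12091 by log2FC and place 2 by p-value. The estimated counts behind these values were 2652 to 4456 per chow liver and 18568 to 42368 per HSD liver.

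The difference in *Apoa4* did not rest on a single liver. With each liver left out in turn, its log2FC was 2.58 to 2.93 (adjusted p = 1.29e-05 to 0.000283 by edgeR). Without chow 1 and chow 3 it was 2.89 (adjusted p = 3.80e-05). Within the first label series alone it was 3.01 (adjusted p = 0.00848 by edgeR), with 167 to 258 CPM in 4 chow livers and 1103 and 2081 CPM in 2 HSD livers. The second series held 1 chow liver at 206.8 CPM and 2 HSD livers at 1267 and 1201 CPM, too few for a test of its own.

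Because apolipoprotein A-IV is best known as an intestinal protein, markers of the enterocyte were read in the same livers. Of 7 markers listed, 5 were analysed here and 2 passed the filter on low counts. *Cdh17*, an adhesion protein of the intestinal epithelium, had a count of 0 in all 9 livers, the lactase *Lct* had at most 2 counts and the villus protein *Vil1* at most 12.0 counts in any liver. *Fabp2*, which encodes the intestinal fatty acid-binding protein, was higher on HSD, at 29.4 to 41.8 CPM on chow and 56.8 to 85.1 CPM on HSD (log2FC 0.95, SE 0.13, adjusted p = 0.00199 by edgeR, and 0.0705 within the first label series). *Lgals4*, a galectin of the gut, was at 4.99 to 10.6 CPM on chow and 1.37 to 4.90 CPM on HSD and did not pass (adjusted p = 0.0880 by edgeR), though DESeq2 called it lower.

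The gene lies at chr9:46240696-46243459 on the plus strand of GRCm38 and has 1 transcript in GENCODE, *Apoa4*-201, of 1815 bases in 3 exons. Of its 1785 distinct 31-base sequences, the unit by which kallisto matches reads, 1152 (64.5%) also occur in other transcripts once both strands are read. All of these are from a pair of loci annotated on the opposite strand, *Gm47528* and *Gm10680*, with 576 sequences each. *Gm47528* covers exon 1 (507 bases) and exon 2 in full, and *Gm10680* covers 632 of the 1181 bases of exon 3 (53.5%). Neither locus was among the symbols analysed here. The estimated counts of *Apoa4* were whole numbers in 9 of 9 livers. So were those of *Apom*, the other gene of the group with a single transcript. These counts show no division of reads in fractions between *Apoa4* and another transcript. Whether the reference used by kallisto held the antisense loci is not given. Without them, whole counts would follow whatever antisense reads were present, so whole counts cannot settle this. The sources used here do not say whether the libraries kept strand. If they did not, reads of *Apoa4* and of the antisense loci over these exons cannot be told apart, whereas the rest of exon 3 is free of them.

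The promoters of *Apoa4* and *Apoc2*, the 2 genes called, and of *Apoa5*, the next gene along chromosome 9 from *Apoa4*, are shown for comparison. They are RefSeq promoter windows of GRCm38.p6 (250 bases before and 50 after a start site, 300 in all), each read 5′ to 3′ on the strand of its gene, and 8 of the 10 members matched an entry. Capitals mark matches, on either strand, to the motifs searched, which were the TATA box as TATAAA, the CCAAT box, the E-box as CACGTG, the cyclic AMP response element as TGACGTCA, the HNF4 element as CAAAGTCCA, the core recognised by nuclear receptors as AGGTCA, and their direct repeat (DR1), in which 2 such cores follow each other with 1 base between and up to 2 mismatches in the 12 fixed bases were allowed. DR1 thus overlaps the single core. The windows are chr9:46240594-46240893 (plus strand) for *Apoa4*, chr7:19677892-19678191 (minus strand) for *Apoc2*, and chr9:46268383-46268682 (plus strand) for *Apoa5*.
Apoa4: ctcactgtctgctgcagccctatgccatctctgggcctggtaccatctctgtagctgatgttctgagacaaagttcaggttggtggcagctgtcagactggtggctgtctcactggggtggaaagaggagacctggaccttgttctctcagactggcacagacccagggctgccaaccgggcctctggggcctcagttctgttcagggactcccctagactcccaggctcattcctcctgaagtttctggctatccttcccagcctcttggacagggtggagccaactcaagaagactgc
Apoc2: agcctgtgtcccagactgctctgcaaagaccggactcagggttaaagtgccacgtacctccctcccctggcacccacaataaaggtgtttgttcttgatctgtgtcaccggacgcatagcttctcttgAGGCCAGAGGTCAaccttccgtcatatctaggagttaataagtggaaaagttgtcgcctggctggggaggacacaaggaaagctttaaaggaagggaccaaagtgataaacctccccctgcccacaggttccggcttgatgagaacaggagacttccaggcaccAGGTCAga
Apoa5: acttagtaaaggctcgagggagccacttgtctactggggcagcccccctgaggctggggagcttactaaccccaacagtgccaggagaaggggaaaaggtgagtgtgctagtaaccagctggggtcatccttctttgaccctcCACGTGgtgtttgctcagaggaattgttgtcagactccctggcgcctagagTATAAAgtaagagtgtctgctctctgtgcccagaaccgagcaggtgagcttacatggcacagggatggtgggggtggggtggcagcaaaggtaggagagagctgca
The *Apoa4* window held no match to any of these motifs, and its start site (46240844) lies within exon 1 of the GENCODE transcript. The *Apoc2* window held a DR1 match at 122 bases before the start site, which includes an AGGTCA core, and a second core 43 bases after it. Over 32851 promoter windows of the same length, 3.86% held a DR1 match and 16.3% an AGGTCA. In the *Apoa5* window shown, CACGTG was found 107 bases and TATAAA 56 bases before the start site, motifs that occurred in 7.15% and 13.6% of the windows. RefSeq holds another *Apoa5* window, with its start site at 46268608, from which the same matches lie at -82 and -31. CCAAT was in 37.4%, TGACGTCA in 1.79% and CAAAGTCCA in 0.475% of the windows, and none of these was in the 3 shown. DR1 was also matched in the window of *Apoa2* and TATAAA in those of *Apoa2*, *Apob* and *Apoe*. A match is a description of letters and no binding was measured here.

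*Apoc2*, whose protein is the cofactor of lipoprotein lipase, was the other gene called higher. It stood at 169.6, 151.0, 106.4, 119.1 and 105.6 CPM in chow 1 to 5 and at 197.1, 237.3, 204.2 and 211.6 CPM in HSD 1 to 4. The diets did not overlap, and chow 1 was the chow liver nearest to them. The log2FC was 0.71 (SE 0.14, 95% interval 0.39 to 1.02, adjusted p = 0.0151 by edgeR), or 1.63-fold. Leaving out each liver in turn gave 0.63 to 0.81 (adjusted p = 0.00247 to 0.0466), and leaving out chow 1 and chow 3 gave 0.76 (adjusted p = 0.00365). Within the first label series the log2FC was 0.67 and the call was lost (adjusted p = 0.200 by edgeR). In the second series *Apoc2* was at 105.6 CPM in the chow liver and 204.2 and 211.6 CPM in the HSD livers.

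The counts of *Apoc2* depend on how reads were divided with an overlapping gene. *Apoc2* lies at chr7:19671579-19677941 on the minus strand. *Gm44805*, on the same strand, runs from *Apoc4* through *Apoc2* and holds 617 of the 783 distinct 31-base sequences of *Apoc2* (78.8%), and 596 of 601 (99.2%) of the transcript *Apoc2*-201. The estimated counts of *Apoc2* were whole in 0 of 9 livers. *Gm44805* was at 12.5 to 27.2 CPM on chow and 16.3 to 19.9 CPM on HSD, with a log2FC of -0.04 (SE 0.18, 95% interval -0.43 to 0.35, adjusted p = 0.920 by edgeR). With *Apoc2* and *Gm44805* added together, an alternative chosen after seeing the data, the log2FC was 0.63 (SE 0.12, adjusted p = 0.0120). *Apoc4*, the apolipoprotein gene between *Apoc2* and *Apoc1* that *Gm44805* also overlaps, was at 311 to 406 CPM on chow and 266 to 374 CPM on HSD (log2FC -0.29, SE 0.12, adjusted p = 0.170).

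**Figure D2:**
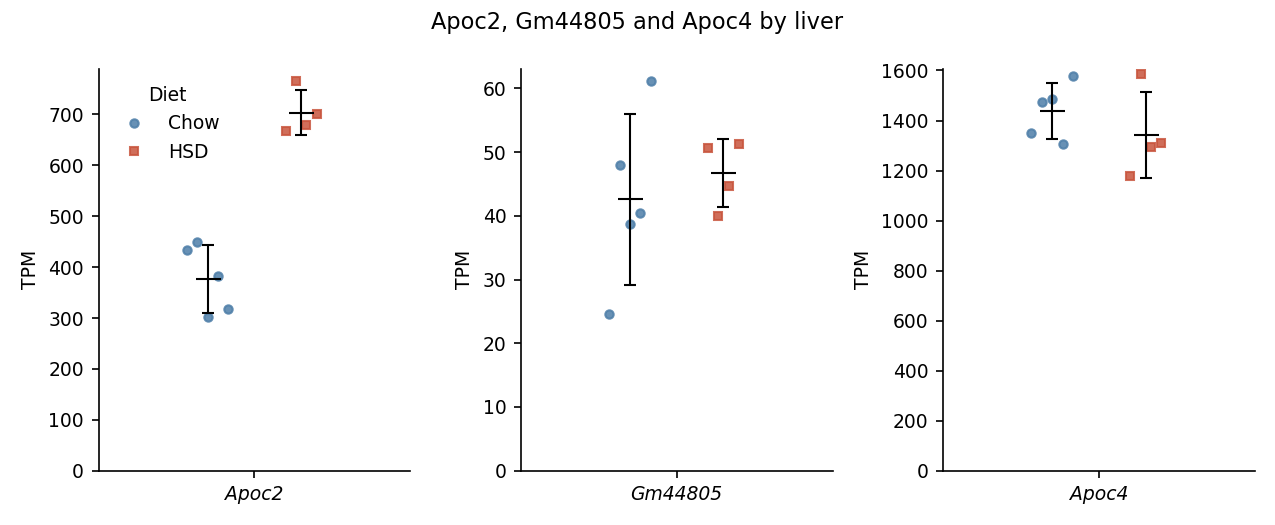
TPM of *Apoc2*, *Gm44805* and *Apoc4* in each liver, on axes that start at 0. Circles are chow livers (n = 5), squares HSD livers (n = 4), and black marks the mean and SD. The 4 HSD livers lie above all chow livers for *Apoc2* (668 to 766 TPM against 302 to 449 TPM), while the diets overlap for *Gm44805* and *Apoc4*.

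Of the 10 genes, 7 sit in a pair of clusters, and in each the called gene had neighbours that did not pass. On chromosome 9, *Apoa1* (chr9:46228580-46230466, plus strand), *Apoc3* (chr9:46232933-46235636, minus strand), *Apoa4* and *Apoa5* (chr9:46268633-46271919, plus strand) follow one another, and their log2FC values were -0.30, -0.14, 2.82 and 0.25. The other genes tested within 100 kb were *Sik3* at 0.06, *Zpr1* at -0.17 and *Bud13* at -0.21, none of them called. On chromosome 7, *Apoc2*, *Apoc4* (chr7:19678083-19681479), *Apoc1* (chr7:19689481-19692660) and *Apoe* (chr7:19696109-19699188), all on the minus strand, had log2FC values of 0.71, -0.29, -0.24 and -0.07. *Apoa2* (chr1:171225054-171226379), *Apob* (chr12:7977648-8016835) and *Apom* (chr17:35128997-35132050) lie apart from these. Over all members, 51 further genes of the tables lay within 100 kb, of which 36 were tested. Of these 36, 0 were called by edgeR, DESeq2 or limma voom. An unadjusted p under 0.05 was found in 4 of the 36, against 23.7% of all genes. These 4 were lower on HSD (*Nr1i3* and *Fcer1g* near *Apoa2*, and *Apoc4* and *Tomm40* near *Apoe*).

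**Figure D3:**
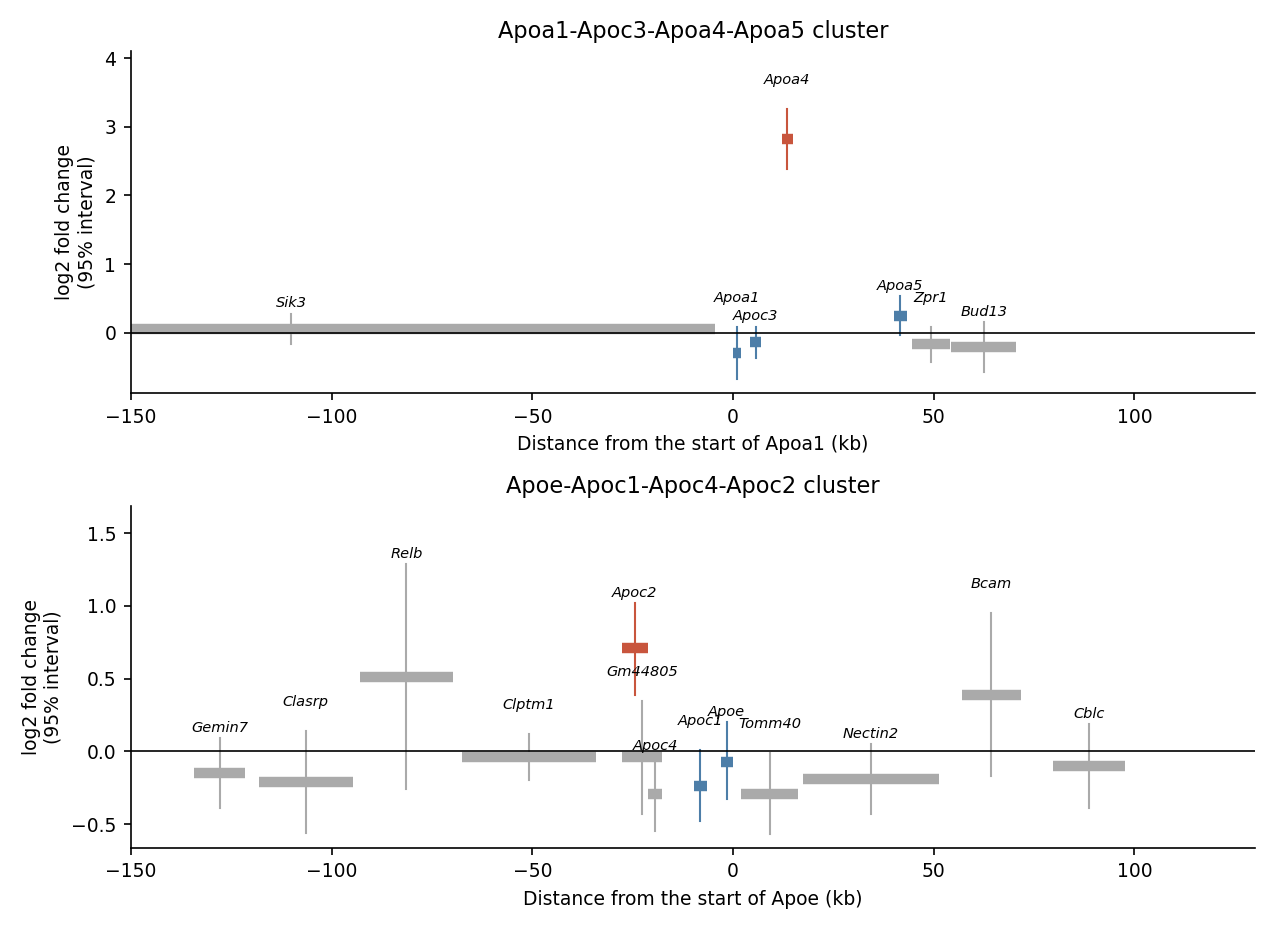
Log2FC (HSD against chow) of the genes tested in the clusters of *Apoa1* (upper panel) and *Apoe* (lower panel), against the distance in kb from the start of *Apoa1* or *Apoe*. Horizontal bars span each gene, vertical lines are 95% intervals from edgeR, red marks genes called higher, blue the other members and grey their neighbours. *Apoa4* at 2.82 and *Apoc2* at 0.71 stand above neighbours that were not called.

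The HDL genes were lower on average on HSD in CPM, without passing the test, and their differences were smaller in TPM. *Apoa1*, which encodes the main HDL protein, was at 8383, 12288, 9876, 8326 and 10964 CPM on chow and 5935, 10372, 8245 and 7889 CPM on HSD, with a log2FC of -0.30 (95% interval -0.68 to 0.08, adjusted p = 0.333 by edgeR). Its livers varied widely in both diets and the ranges overlapped. *Apoa2*, the second HDL protein, varied little on chow (3627, 3867, 3831, 3793 and 3738 CPM, a coefficient of variation of 2.49%). On HSD it was at 2946, 3676, 3102 and 3008 CPM, so that 3 HSD livers lay below all chow livers and HSD 2 did not. Its log2FC was -0.24 (95% interval -0.47 to -0.02, adjusted p = 0.183 by edgeR), and this is the gene that DESeq2 called. *Apom*, a lipocalin carried on HDL that binds sphingosine 1-phosphate, was at 190 to 235 CPM on chow and 168 to 198 CPM on HSD, a log2FC of -0.21 (95% interval -0.41 to -0.01, adjusted p = 0.185). With limma on log2(TPM + 1) the differences were -0.14 for *Apoa1*, -0.06 for *Apoa2* and -0.03 for *Apom* (adjusted p = 0.688, 0.813 and 0.818), on a scale where the median of all genes was 0.136. The *Apoa2* range on HSD (14843 to 17637 TPM) lay within that on chow (13661 to 18082 TPM).

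*Apob*, which encodes the structural protein of VLDL and is the longest of these transcripts, was at 5781, 4603, 6153, 5805 and 4684 CPM on chow and 7508, 5645, 6170 and 7366 CPM on HSD. HSD 1 and HSD 4 lay above all chow livers, HSD 3 just above the highest, and HSD 2 within the chow range. The log2FC of 0.30 (SE 0.14, 95% interval 0.01 to 0.60) did not pass (adjusted p = 0.204 by edgeR, and 0.0922 without chow 1 and chow 3). In TPM the difference was 0.18 (adjusted p = 0.282 by limma), on a scale where the median of all genes was 0.136.

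Unlike *Apoc2*, the other regulators of triglyceride clearance among the members, *Apoa5* and *Apoc3*, did not pass, and they lay on either side of 0. *Apoa5*, whose protein promotes lipolysis by lipoprotein lipase, was at 1245, 1490, 1129, 1060 and 1231 CPM on chow and 1312, 1753, 1359 and 1415 CPM on HSD (log2FC 0.25, 95% interval -0.03 to 0.53, adjusted p = 0.271 by edgeR). Only chow 2 reached into the HSD range. In TPM the diets did not overlap for *Apoa5*, at 964 to 1435 TPM on chow and 1507 to 1838 TPM on HSD. The difference was 0.47 (adjusted p = 0.0537 by limma on log2(TPM + 1)), on a scale where the median of all genes was 0.136. The antisense locus *Gm47544* holds 18.4% of the 31-base sequences of *Apoa5*. *Apoc3*, the inhibitor of triglyceride clearance, was at 1149 to 1346 CPM on chow and 968 to 1259 CPM on HSD (log2FC -0.14, 95% interval -0.37 to 0.09, adjusted p = 0.479). Its sign turned on the TPM scale, where the change was 0.05.

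The other members of the *Apoe* cluster showed small differences. *Apoe*, the receptor ligand of remnant particles and the most abundant transcript of the group, was at 15732, 14555, 14736, 13466 and 16093 CPM on chow and 13832, 16702, 13242 and 13191 CPM on HSD. The ranges overlapped, and the log2FC of -0.07 (95% interval -0.33 to 0.20, adjusted p = 0.786 by edgeR) became 0.11 on the TPM scale. *Apoc1*, whose protein interferes with receptor binding of remnants, was at 2016, 2561, 1985, 1940 and 2282 CPM on chow and 1705, 1889, 1800 and 1928 CPM on HSD. In CPM the diets did not overlap, chow 4 and HSD 4 being the nearest livers, and the log2FC was -0.24 (95% interval -0.48 to 0.01, adjusted p = 0.229). In TPM the diets overlapped and the difference was -0.03 (adjusted p = 0.904 by limma).

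**Figure D4:**
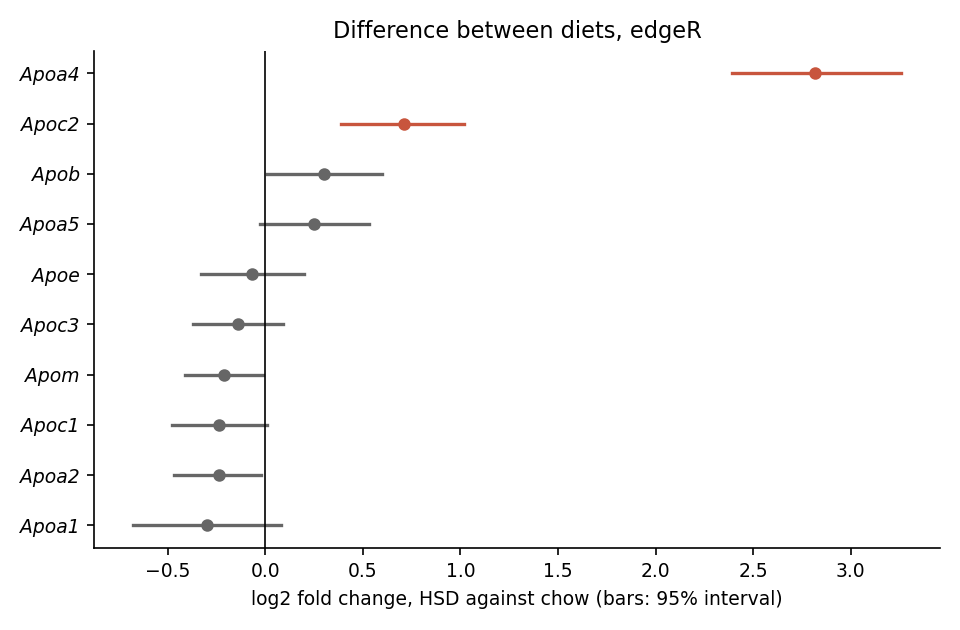
Log2FC of each member, HSD against chow, with its 95% interval from edgeR (n = 5 chow and 4 HSD livers). Red marks the 2 genes called higher, *Apoa4* (2.82) and *Apoc2* (0.71), and the other 8 genes, in grey, lie between -0.30 and 0.30.

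Levels of different genes were compared in TPM, which is corrected for transcript length. On chow the order of mean TPM was *Apoe* (24863), *Apoa2* (16341), *Apoa1* (14414), *Apoc1* (12543), *Apoc3* (4921), *Apoa5* (1201), *Apob* (922), *Apoc2* (377), *Apom* (313) and *Apoa4* (143). The ranges over livers overlapped between *Apoa2* and *Apoa1*, *Apoa1* and *Apoc1*, *Apoa5* and *Apob*, and *Apoc2* and *Apom*, and no other neighbours in this order overlapped. On HSD *Apoa4* moved from last place to place 7, at 1146 ± 342 TPM (SD, n = 4) against 143 ± 17.4 TPM (SD, n = 5), between *Apoa5* (1650) and *Apob* (1041), with ranges that overlapped both, and *Apoa2*, *Apoa1* and *Apoc1* again overlapped in turn. The other 9 genes kept their order, from *Apoe* (26867) to *Apom* (306). Among all genes of the table *Apoa4* went from rank 684 to rank 95 by mean TPM. *Apoa1* exceeded *Apoa4* by 64.4 to 124 times in the chow livers and by 9.93 to 13.1 times in the HSD livers, and *Apoc3* exceeded *Apoc2* by 9.91 to 17.6 times on chow and 6.75 to 7.64 times on HSD. Together the 10 genes took 6.86 to 9.0% of all TPM on chow and 7.66 to 9.22% on HSD, and *Apoa4* took 0.166 to 0.258% and 1.27 to 1.90% of that sum.

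**Figure D5:**
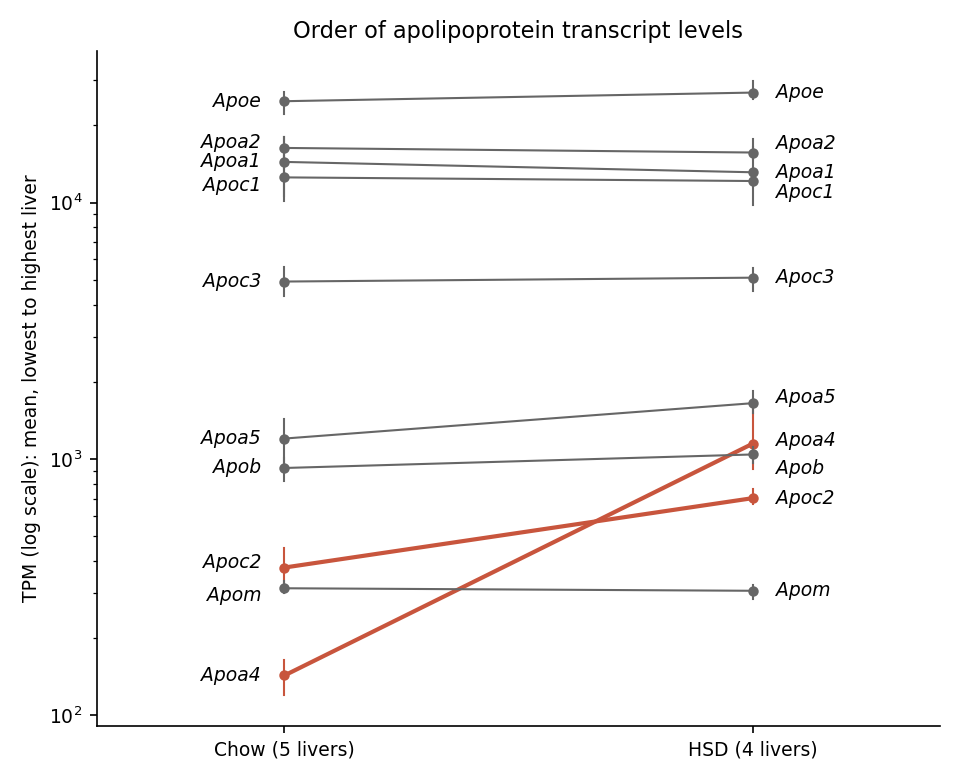
Mean TPM (log axis) of the 10 genes on chow (5 livers) and HSD (4 livers), joined by lines, with vertical lines from the lowest to the highest liver. *Apoa4* and *Apoc2*, in red, rise from 143 to 1146 TPM and from 377 to 703 TPM.

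Genes with related roles were read from lists. Over all genes, edgeR called 3.44% higher and 3.23% lower, and 23.7% had an unadjusted p under 0.05. Of the same 12091 genes, DESeq2 called 647 higher and 690 lower, and limma voom 438 and 381. Of 16 genes of VLDL assembly and secretion, 0 were called by edgeR, 4 had an unadjusted p under 0.05, all higher, and DESeq2 called 2 and limma voom 1 of them higher. The median log2FC was 0.08. *Mttp*, the microsomal triglyceride transfer protein that loads lipid onto apolipoprotein B, was at 287 to 403 CPM on chow and 424 to 485 CPM on HSD, without overlap (log2FC 0.35, SE 0.11, adjusted p = 0.0768 by edgeR). *Tm6sf2*, a gene needed for full lipidation of VLDL, was at 16.6 to 31.8 CPM on chow and 29.6 to 36.7 CPM on HSD (log2FC 0.54, SE 0.15, adjusted p = 0.0517). *Tmem41b*, a scramblase of the endoplasmic reticulum, was at 12.6 to 17.5 CPM on chow and 16.5 to 21.1 CPM on HSD (log2FC 0.36, adjusted p = 0.0952). *Sar1b*, the GTPase of the coat that exports VLDL from the endoplasmic reticulum, had a log2FC of 0.28 (adjusted p = 0.115).

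Among 5 genes of *Apob* mRNA editing, *Apobec1*, the deaminase that converts the *Apob*-100 message to the *Apob*-48 message, was lower and the other 4 did not pass. It was at 13.3 to 19.4 CPM on chow and 9.90 to 12.1 CPM on HSD, a log2FC of -0.54 (SE 0.13, adjusted p = 0.0315 by edgeR). The call was lost without chow 2, chow 3, chow 5, HSD 1, HSD 3 or HSD 4, with an adjusted p of up to 0.102. *A1cf*, its RNA-binding partner, was at 47.7 to 82.8 CPM on chow and 81.6 to 115 CPM on HSD (log2FC 0.51, adjusted p = 0.0696). Editing of the transcript itself cannot be read from gene counts.

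Of 15 genes of lipoprotein remodelling, *Lcat* and *Lmf1* were lower, 0 were called higher by edgeR (1 by DESeq2, 0 by limma voom, 2 with an unadjusted p under 0.05), and the median log2FC was -0.05. *Lcat*, which esterifies cholesterol on HDL, fell by 0.49 on the log2 scale, from 321 to 463 CPM on chow to 228 to 311 CPM on HSD (SE 0.13, adjusted p = 0.0479 by edgeR). *Lmf1*, a chaperone of lipoprotein lipase and hepatic lipase, fell by 0.47 (SE 0.11, adjusted p = 0.0282). Either call was lost without chow 3, HSD 1, HSD 3 or HSD 4, that of *Lcat* also without chow 2 and that of *Lmf1* also without HSD 2, with an adjusted p of up to 0.148 and 0.0942. *Lipg*, the endothelial lipase, was at 12.2 to 24.3 CPM on chow and 16.7 to 31.8 CPM on HSD and was the gene that DESeq2 called higher (log2FC 0.67, adjusted p = 0.0962 by edgeR). *Pltp*, the phospholipid transfer protein, was at 33.6 to 108 CPM on chow and 92.1 to 154 CPM on HSD and did not pass (log2FC 0.89, adjusted p = 0.109).

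Of 12 receptors and uptake genes tested, *Sorl1*, an intracellular sorting receptor, was called higher (1.06 to 2.59 CPM on chow, 2.46 to 7.24 CPM on HSD, log2FC 1.43, SE 0.35, adjusted p = 0.0324 by edgeR). That call was lost without chow 2, chow 3, chow 5, HSD 1, HSD 3 or HSD 4 (adjusted p of up to 0.0948). The median of the 12 was 0.20 and 0 were called lower by edgeR, DESeq2 or limma voom, with 0 lower at an unadjusted p under 0.05. *Lrpap1*, a chaperone of lipoprotein receptors, and *Cd36*, a fatty acid transporter, had log2FC values of 0.34 and 0.47 (adjusted p = 0.0504 and 0.0821 by edgeR), and DESeq2 called both higher.

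Among 26 transcriptional regulators of apolipoprotein genes, *Ppargc1a* and *Foxo1* were higher, *Creb3l3* was lower and 23 did not pass, with a median log2FC of 0.06. *Creb3l3* encodes CREBH, a membrane-bound transcription factor of hepatocytes known to activate *Apoa4*, *Apoc2* and *Fgf21*. Its own transcript was at 314.7, 269.3, 371.0, 304.3 and 314.6 CPM on chow and 227.2, 252.7, 154.9 and 206.6 CPM on HSD, so that the diets did not overlap (log2FC -0.58, SE 0.14, adjusted p = 0.0314 by edgeR). The call of *Creb3l3* was lost without chow 3, chow 5, HSD 1, HSD 3 or HSD 4 (adjusted p of up to 0.0926). *Ppargc1a*, a coactivator of nuclear receptors, was at 5.30 to 8.76 CPM on chow and 10.7 to 16.3 CPM on HSD (log2FC 0.93, SE 0.17, adjusted p = 0.00955 by edgeR, and 0.0153 without chow 1 and chow 3). *Foxo1*, the insulin-restrained factor that acts on *Apoc3* and *Mttp*, had a log2FC of 0.35 (SE 0.09, adjusted p = 0.0389), a call lost without any of chow 2 to 5, HSD 1, HSD 3 or HSD 4 (adjusted p of up to 0.123) and without chow 1 and chow 3 together. The nuclear receptor genes *Nr5a2*, *Nr0b2* and *Nr1d1* had log2FC values of 0.38, 0.94 and 0.48 (adjusted p = 0.0822, 0.0825 and 0.0862 by edgeR), and DESeq2 called all 3 higher. *Hnf4a*, the hepatocyte nuclear receptor that binds DR1 sites, had a log2FC of 0.22 (SE 0.12, adjusted p = 0.270).

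Of 6 genes known as targets of CREBH, 3 were called higher, namely *Apoa4*, *Apoc2* and *Fgf21*, and none was called lower by edgeR, DESeq2 or limma voom (0 of 6, also 0 at an unadjusted p under 0.05). The list includes *Apoa4* and *Apoc2* themselves and was drawn up with their results known, so its count is no separate support for them. *Fgf21*, the hepatic hormone, was at 0.300 to 0.866 CPM on chow and 2.85 to 7.86 CPM on HSD (log2FC 2.99, SE 0.40, adjusted p = 0.00199 by edgeR). *Hamp*, *Cyp4a14* and *Cidec*, the remaining 3 genes, had log2FC values of -0.62, 1.96 and 0.68 and did not pass, and *Cyp4a14* ranged from 8.05 to 139 CPM among the HSD livers.

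The genes whose pattern over the 9 livers was nearest to that of *Apoa4* were ranked by the root mean square difference of their centred log2 CPM, among 10367 genes. *Fgf21* was nearest at 0.49, followed by *Mtmr11* and *Atp2b2* at 0.71, *Morc4* at 0.77 and *Cyp17a1* at 0.78. The chow means of *Fgf21*, *Mtmr11*, *Atp2b2* and *Morc4* were low, at 0.563, 1.43, 1.61 and 1.35 CPM. These genes reached the floor for candidates only through their HSD livers. *Fgf21* shared with *Apoa4* the place of HSD 2 as the highest liver, at 7.86 CPM against 2.85 to 4.24 CPM in the other HSD livers. This place is not particular to them. HSD 2 was also the highest HSD liver for *Apoa1*, *Apoa2*, *Apoa5*, *Apoc2*, *Apoc3*, *Apoe* and *Apom*, though not for *Apob* or *Apoc1*. *Cyp17a1*, a steroid-synthesizing cytochrome P450, was highest in HSD 4 instead, at 91.8 CPM. The measure takes in the difference between diets, so that genes with a large rise on HSD are near by construction.

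Further genes named as apolipoproteins or carried on lipoproteins had a negative log2FC in 13 of the 15 tested (23 were listed). Of these, 4 were called lower and 0 higher by edgeR, with 0 higher also by DESeq2, by limma voom and at an unadjusted p under 0.05. The median log2FC was -0.47. Those called were *Apol9b* (-1.04, SE 0.18, adjusted p = 0.00707), *Apol9a* (-0.98, SE 0.22, adjusted p = 0.0240), *Apol7a* (-0.58, SE 0.14, adjusted p = 0.0269) and *Saa4* (-1.88, SE 0.50, adjusted p = 0.0434). *Apol9b* was at 87.0 to 177 CPM on chow and 53.9 to 78.7 CPM on HSD, and its call held with each liver left out (adjusted p of up to 0.0320) and without chow 1 and chow 3 (log2FC -0.84, adjusted p = 0.00782). *Apol9a* and *Apol9b* are near-identical copies between which reads may have been divided. The calls of *Apol9a*, *Apol7a* and *Saa4* were lost without any 1 of the 4 HSD livers, and those of *Apol7a* and *Saa4* also without chow 3, with an adjusted p of up to 0.0814, 0.0834 and 0.110. *Saa4*, a serum amyloid of HDL, was at 1324 CPM in chow 1 with 222 to 422 CPM in chow 2 to 5 and 112 to 156 CPM on HSD. The inducible serum amyloids *Saa1* and *Saa2*, which displace apolipoprotein A-I from HDL in inflammation, reached 8306 and 10112 CPM in chow 1, with 4.45 to 107 CPM over chow 2 to 5, and did not pass (adjusted p = 0.0539 and 0.0613 by edgeR). *Saa1* and *Saa2* are among the 21 acute phase genes above, so their level in chow 1 enters the mean of that list and is no separate observation. Of the 21, 1 (*Itih3*) was called lower by edgeR and 13 had an unadjusted p under 0.05, all lower. The call of *Itih3* was lost without chow 3 or any 1 of the 4 HSD livers (adjusted p of up to 0.125) and with DESeq2 (adjusted p = 0.0562). *Apoh* (beta-2 glycoprotein I) had a log2FC of 0.02 (adjusted p = 0.918), and *Apof*, highest in chow 1 at 761.7 CPM, had a log2FC of -0.20 (adjusted p = 0.331).

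Markers of other cells of the liver were read beside these results. Macrophages also make apolipoprotein E. Of 10 Kupffer cell and macrophage markers, all 10 had a negative log2FC (median -0.57), none was called by edgeR, DESeq2 or limma voom (0 of 10), and 6 had an unadjusted p under 0.05. Their summed level, not rescaled by TMM, was 199 to 419 CPM on chow and 123 to 253 CPM on HSD, and its part in the level of *Apoe* was not tested. The mean log2 CPM of these markers, centred over the livers, was 0.99 in chow 1, 0.56 in chow 3 and -1.07 in HSD 4, with -0.36 to 0.09 in chow 2, 4 and 5 and -0.08 to -0.01 in HSD 1 to 3. No marker of the liver endothelium, of stellate cells or of cholangiocytes was called by edgeR (0 of 6, 0 of 6 and 0 of 5, with 1, 2 and 2 at an unadjusted p under 0.05). DESeq2 called 0, 2 and 1 of them, and limma voom called 0 in each list. Of the 5 hepatocyte markers, *Serpina1a* was lower (log2FC -0.38, adjusted p = 0.0475 by edgeR, lost without any liver but chow 1) and 4 did not pass. Of 4 red blood cell markers tested, *Alas2*, an enzyme of heme synthesis, was lower (log2FC -1.14, adjusted p = 0.000160 by edgeR). The globin genes *Hba-a1*, *Hbb-bt* and *Hbb-bs* overlapped between diets and did not pass (adjusted p = 0.541, 0.862 and 0.725 by edgeR). Among 13 clock genes 0 were called by edgeR or limma voom, 2 were called higher by DESeq2 and 3 had an unadjusted p under 0.05.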

How the data were processed

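Poly-A libraries of 9 livers were sequenced by the authors as read pairs and quantified with kallisto. The version, the annotation release and the strandedness are not given in the sources used here, and the submitters' processing notes name GRCm38. The authors deposited estimated counts per gene symbol, unscaled, and TPM values, scaled by the authors per library (sums of 923061 to 945110 over the symbols listed). Of the deposited estimated counts above 0, 34.1% were whole (tolerance 1e-06) and 99.1% of these even, so halved counts were an alternative. The tables held 0 columns of other samples.

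Estimated counts were rounded, filtered (filterByExpr, minimum count 10, minimum total 15), TMM-scaled and compared in edgeR 4.0.16 (R 4.3.3), with diet as the factor and 7 residual degrees of freedom. P-values were adjusted over all 12091 genes. Alternatives used DESeq2 1.42.0, limma 3.58.1 (voom, and log2(TPM + 1) or log2(TPM + 0.1)), other scalings and filters, the replicate block, label series, a clock gene covariate and each liver left out. Adding *Gm44805* to *Apoc2* and leaving out chow 1 and chow 3 were chosen after seeing the data. Tested on simulated counts for this comparison (11989 genes), edgeR found 80 of 100 genes with an absolute log2FC of 1 and 95 of 100 with 2, beside 4 false calls. The simulated counts were independent draws at the trended dispersion, with no liver set apart and no label series. Smaller changes were not simulated, so the recovery does not carry over to genes with smaller differences. Genes named were the 10 members, those sharing 31-base sequences with them, genes within 100 kb, the 5 nearest to *Apoa4* in pattern, and for each list the genes called and up to 4 more of smallest p, not all of which the text names; *Hnf4a*, *Apoh*, *Apof*, *Hamp*, *Cyp4a14* and *Cidec* were added after their values were seen. The members and all lists were chosen with earlier results of these data known. Positions are from GENCODE M21 (GRCm38) and promoters from RefSeq (GRCm38.p6).

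Of the marker lists for acinar, adipose and lymphoid cells, only 1 of 6, 0 of 4 and 1 of 5 genes could be tested. These gave 0 calls by edgeR, DESeq2 or limma voom, and 0 at an unadjusted p under 0.05. The lists therefore do not show whether these cells differed between diets. P-values measure the spread between mice. Some genes that this naming rule selects outside the 10 members are not reported here.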

Additional observations from a re-analysis of the deposited data

Results flagged for a closer look

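Among 86 gene-by-diet groups, 3 had 1 liver far from the others of its diet by Dixon's test, which by chance picks about 1 group in 20. *Apoc4* was low in chow 4, where log2 CPM differed by -0.35 from the mean of its 4 companions (311 CPM). *Saa1* was high in HSD 1, by 0.77 log2 units (15.7 CPM). *Saa2* was high in chow 1, by 9.63 log2 units (10112 CPM). None of the 10 apolipoprotein genes described above was among them.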

How the results depend on the processing

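*Apoa4* was called higher under all 26 alternatives (log2 fold change 2.58 to 3.01) and *Apoc2* under 24 (0.63 to 0.91). The number of the 10 genes called higher was 2, and 1 at an adjusted p under 0.01 and within the first label series, where *Apoc2* was lost. With each liver left out it stayed at 2 higher and 0 lower. The number called lower was 0, and 1 with DESeq2 (*Apoa2*). The sign of *Apoe* turned with library totals (0.00), on the 3 TPM scales (0.11 in each) and within the first label series (0.06), and that of *Apoc3* on the 3 TPM scales (0.05 in each). The cause was not tested. The median of all genes lay at 0.066 with library totals and at 0.063 to 0.155 on the TPM scales. Over all genes, edgeR called 416 higher and 391 lower, against 97 and 112 at 0.01, 647 and 690 with DESeq2, 569 and 254 with library totals, and 475 and 101, 448 and 101, and 243 and 51 on the TPM scales. The first label series alone gave 15 and 19, and leaving out 1 liver gave 153 to 475 and 149 to 493, the lowest without HSD 1. Halved counts gave 449 and 408 and changed no call of the 10 genes.

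The labels number the livers within each diet. Over 4 shared numbers, deviations from the diet means correlated at -0.06 to 0.07 between livers of the same number. Between livers of different numbers the values were -0.12 to 0.16. No pairing by number was seen, but so few livers cannot exclude it. With the number as a replicate block, 220 genes were higher and 205 lower, and the same count of members was called (2 higher, 0 lower).

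With 4 and 5 livers per diet and the 95% intervals given, differences of the size seen in *Apob*, *Apoa5* or *Apoc1* did not pass, and that of *Apoa2* passed with DESeq2 only. Antisense overlap over *Apoa4* and *Apoa5* and the division of reads between *Apoc2* and *Gm44805* could not be settled without the reads. RNA levels say nothing of apolipoprotein in plasma.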
